A study of Mus musculus with 4 samples.

Results

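The genes described here encode 54 proteins that carry out mitosis, the separation of copied chromosomes, and cytokinesis, the splitting of the cell that follows. They were picked by symbol from a table of 23996 genes. Each symbol matched 1 row, and all 54 were among the 11569 genes for which the authors ran a test. The cells were follicular helper T (TFH) cells, a CD4 T cell subset that supports germinal centre B cells, isolated from mouse spleen by flow sorting on CD4, CD44, CXCR5 and PD-1 at day 7 after immunization with OVA, the antigen ovalbumin, in alum. WT mice had the genotype Etv5f/f, a floxed allele of the ETS transcription factor gene Etv5 without Cre. The knockout mice (Etv5 cKO) had the genotype Etv5f/f;Cd4-Cre, so both groups carried the floxed allele and the same immunization, and only the knockout carried the Cre transgene. The Cd4 promoter drives Cre from the thymic stage at which T cells express CD4, and it is therefore not restricted to TFH cells. The labels give no strain, age or sex, and do not say whether the 2 libraries of each genotype came from separate mice.

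Entry into mitosis is driven by the kinase CDK1 bound to cyclin A or cyclin B. Kinetochores on the centromeres attach chromosomes to spindle microtubules, the spindle checkpoint delays anaphase until they are attached, and the anaphase-promoting complex (APC/C) then marks cyclin B and securin for destruction. Transcripts of most of these proteins accumulate in G2 and M phase and are low in resting T cells. In bulk RNA, a larger share of dividing cells and more transcript per dividing cell cannot be told apart.

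The authors' deposited values are FPKM, which count fragments relative to gene length and library size, and each genotype has a single value per gene that covers both of its libraries. Values per library were not analysed here, so no standard deviation is given and the depth is unknown. The only measures of error are the score and p-value of the authors' Cuffdiff test, which may reflect technical spread. Etv5 itself stood at 5.24 FPKM in WT against 2.12 FPKM in Etv5 cKO. Defining transcripts of the sorted cells were abundant, with Cd4 at 460 and 470 FPKM, Cxcr5 at 183 and 158 FPKM and Pdcd1 at 173 and 154 FPKM in WT and cKO. The cKO libraries also held more transcripts of other blood cells. The summed level of 15 erythroid markers was 161 FPKM in WT against 647 FPKM in cKO, that of 9 granulocyte markers 12.0 and 24.6 FPKM, and that of 12 myeloid and dendritic markers 106 and 151 FPKM. Globin entries made up most of the erythroid sum in both genotypes, such as the joint entry of Hbb-b1 and Hbb-bs at 62.1 and 279 FPKM. Some globin genes stood in more than 1 entry. The summed level of 4 Y-linked genes was 63.4 and 26.1 FPKM, and Cuffdiff called all 4 lower in cKO in the authors' deposited table. As the labels give no sex, a different sex make-up of the 2 groups cannot be told apart from genotype in the ratios below. B cell markers were low in both genotypes, with a sum over 7 genes of 19.0 and 18.1 FPKM. Cd22, a B cell co-receptor with a lower value in cKO (10.7 FPKM, log2 ratio -0.28), made up most of that sum, while 5 of the 7 genes had higher values in cKO, and the 3 tested ones had a median log2 ratio of 0.22.

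Of the 54 mitotic genes 51 had a higher FPKM in Etv5 cKO than in WT and 3 had a lower one, and none of the differences passed the authors' test. Over all tested genes 48.9% had a higher value in cKO. The median log2 ratio of the members (cKO over WT) was 0.23, a value 17.6% higher, against -0.0032 for all tested genes. The lower and upper quartiles of the members were 0.17 and 0.28 on the log2 scale, and those of all tested genes were -0.088 and 0.088. These quartiles describe the spread over genes, which are not replicates, and not the spread between libraries or mice. A log2 ratio above 0.1 was found in 46 members, against a background of 22.5% of tested genes, and a log2 ratio above 0.2 in 33 members, against 11.1%. The largest log2 ratio was 0.40, in Ube2c, and the smallest was -0.096, in Smc4.

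In the authors' deposited table Cuffdiff called 0 of the 54 members at an adjusted p below 0.05, against 0.346% of all tested genes called in either direction and 0.104% called higher in cKO. Every member had an adjusted p of 0.999 in the authors' deposited table. At an unadjusted p below 0.05, 1 member passed in the authors' deposited table, against 1.11% of tested genes that passed with a higher value in cKO. That member was Ube2c, the E2 ubiquitin-conjugating enzyme of the APC/C (mm10 chromosome 2, 164769929 to 164772902, protein coding), at 49.3 FPKM in WT against 64.9 FPKM in cKO (unadjusted p = 0.0442 in the authors' deposited table). The next lowest were the cyclin B genes, Ccnb1 at 23.5 and 30.3 FPKM and Ccnb2 at 28.4 and 36.4 FPKM, with unadjusted p of 0.0618 and 0.0654 in the authors' deposited table. Plk1 and Cenpf followed, with unadjusted p of 0.0921 and 0.0924 in the authors' deposited table. Called differences were larger than those of the members. Among 8675 tested genes with a mean level in the range of the members (3.66 to 135 FPKM), 30 were called, and the smallest absolute log2 ratio among them was 0.68. All 54 members lay below that size.

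**Figure D1:**
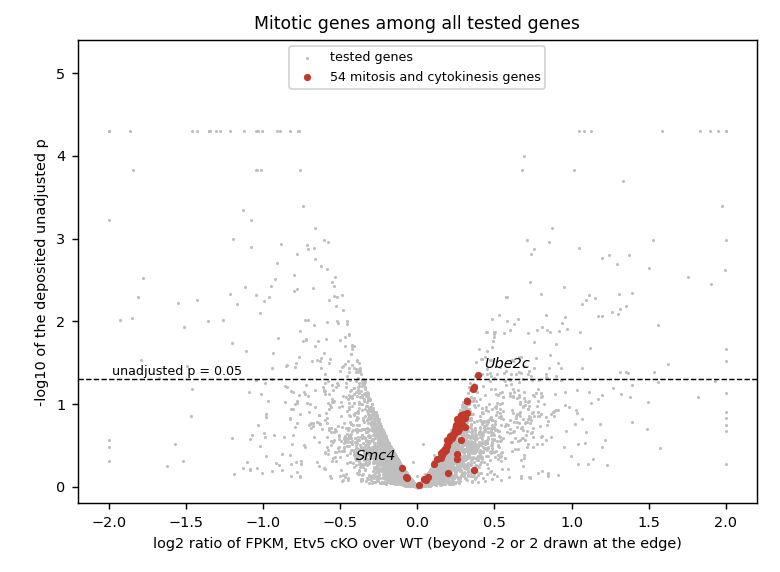
Log2 ratio of FPKM in Etv5 cKO over WT (x axis) against minus log10 of the unadjusted p of the authors' deposited table (y axis), for all tested genes (grey) and the 54 mitotic genes (red). The mitotic genes lie between log2 ratios of -0.096 and 0.40, mostly on the right arm, and 1 of them, Ube2c, lies above the dashed line at an unadjusted p of 0.05.

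The promoters of the 5 members with the lowest p are shown, since short elements known from mitotic genes can be read in them. Each runs from 250 bases before to 50 bases after the start site, on the strand of the gene, from RefSeq on GRCm38.p6, the assembly behind mm10. Ube2c lies at chr2:164769679-164769978 on the plus strand, Ccnb1 at chr13:100786437-100786736 on the minus strand, and Ccnb2 at chr9:70421505-70421804 on the minus strand. Plk1 lies at chr7:122159185-122159484 on the plus strand and Cenpf at chr1:189688037-189688336 on the minus strand. Capitals mark TTTGAA and TTTAAA, the core letters of the cell cycle genes homology region (CHR), and CCAAT, the box bound by NF-Y, each on either strand (TTCAAA and ATTGG on the other strand).
Ube2c: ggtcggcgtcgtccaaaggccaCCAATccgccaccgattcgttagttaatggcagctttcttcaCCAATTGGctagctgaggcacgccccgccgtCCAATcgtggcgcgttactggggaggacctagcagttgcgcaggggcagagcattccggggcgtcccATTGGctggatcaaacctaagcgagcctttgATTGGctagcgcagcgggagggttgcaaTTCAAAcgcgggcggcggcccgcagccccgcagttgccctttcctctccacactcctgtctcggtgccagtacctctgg
Ccnb1: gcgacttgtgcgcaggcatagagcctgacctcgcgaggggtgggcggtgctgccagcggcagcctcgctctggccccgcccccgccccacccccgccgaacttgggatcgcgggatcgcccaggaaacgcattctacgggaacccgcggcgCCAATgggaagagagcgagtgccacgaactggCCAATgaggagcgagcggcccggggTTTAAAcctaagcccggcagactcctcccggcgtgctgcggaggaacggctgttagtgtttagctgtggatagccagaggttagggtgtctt
Ccnb2: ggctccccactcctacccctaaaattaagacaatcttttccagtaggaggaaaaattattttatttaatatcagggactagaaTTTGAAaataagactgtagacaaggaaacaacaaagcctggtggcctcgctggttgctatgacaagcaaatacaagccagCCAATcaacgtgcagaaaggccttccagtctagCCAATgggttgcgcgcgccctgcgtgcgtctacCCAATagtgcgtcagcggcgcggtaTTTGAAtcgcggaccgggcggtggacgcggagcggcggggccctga
Plk1: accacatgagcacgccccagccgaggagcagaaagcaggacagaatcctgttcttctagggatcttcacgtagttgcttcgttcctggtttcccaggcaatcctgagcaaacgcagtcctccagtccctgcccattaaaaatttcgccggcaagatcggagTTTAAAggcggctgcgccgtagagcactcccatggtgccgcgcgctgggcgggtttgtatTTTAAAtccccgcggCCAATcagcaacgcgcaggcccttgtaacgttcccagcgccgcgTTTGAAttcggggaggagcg
Cenpf: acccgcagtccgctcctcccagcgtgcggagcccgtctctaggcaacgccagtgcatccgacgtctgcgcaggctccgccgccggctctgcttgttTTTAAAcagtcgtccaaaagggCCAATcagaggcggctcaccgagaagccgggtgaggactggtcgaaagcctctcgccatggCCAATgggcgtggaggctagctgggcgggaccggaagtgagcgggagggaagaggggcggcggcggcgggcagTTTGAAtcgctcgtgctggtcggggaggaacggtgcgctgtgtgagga
All 5 held at least 1 CCAAT and at least 1 of the CHR cores. The Ube2c promoter held CCAAT 6 times, of which a pair overlap, and its TTTGAA core lay on the other strand at positions -29 to -24 from the start site. Ccnb1 held TTTAAA at -42 to -37, and Ccnb2 and Cenpf held TTTGAA at 5 to 10 and 3 to 8, just after the start site.

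Sequences were found in the RefSeq promoter table for 44 of the 54 members, with 46 promoters. Of these, 35 (76.1%) held TTTGAA on either strand, against 17.9% of all 32851 promoters of the same length and 12.1% of the 11165 promoters of tested genes. Either CHR core was present in 38 (82.6%), against 27.6% of all promoters. CCAAT was present in 34 (73.9%), against 37.4% of all promoters, and at least 2 copies in 22 (47.8%), against 11.7%. The closest lists also held CCAAT often, in 64.8% of promoters of other mitotic genes outside the 54 and 57.1% of those of DNA replication genes, with at least 2 copies in 35.2% and 35.7%. Promoters of DNA replication genes held TTTGAA in 7 of 42 (16.7%), and promoters of the other mitotic genes in 32 of 71 (45.1%). These shares describe letters in a window and not binding. Neither core nor a CCAAT was found in the windows of Mad2l1, Ncaph, Nuf2, Nusap1, Pttg1 and Tacc3, whose log2 ratios ran from 0.053 to 0.31.

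The cyclins and CDK1 gave the highest median of the 10 groups of function, 0.29 on the log2 scale, with all 5 members higher in cKO. Ccna2, the cyclin of S phase and early mitosis, stood at 38.1 FPKM in WT against 46.5 FPKM in cKO. The B cyclins, given above, had log2 ratios of 0.37 (Ccnb1) and 0.36 (Ccnb2), the largest of the group. Cdk1, their catalytic partner, stood at 17.5 and 20.6 FPKM, a log2 ratio of 0.23. Cdc25c, a phosphatase that activates CDK1, was the scarcest of the group at 3.43 and 4.09 FPKM. All cyclin genes thus exceeded the kinase in level per length in both genotypes.

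Among the mitotic kinases 3 of 4 were higher, with a median log2 ratio of 0.27. Plk1, the Polo-like kinase of spindle assembly and cytokinesis, stood at 19.0 and 23.8 FPKM. Aurka, the kinase of the spindle poles, stood at 12.7 and 15.2 FPKM, and Nek2, which acts in centrosome separation, at 8.66 and 10.4 FPKM. Pbk, a mitotic serine/threonine kinase, was the exception, at 12.1 FPKM in WT against 11.5 FPKM in cKO.

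All 4 spindle checkpoint genes were higher in cKO, within a narrow range of log2 ratios from 0.20 to 0.29. Mad2l1, which encodes MAD2, the inhibitor of the APC/C activator CDC20, was the most abundant of the 4 at 27.1 and 31.6 FPKM. Bub1b (BUBR1) stood at 13.3 and 15.3 FPKM, the kinase gene Bub1 at 7.51 and 9.16 FPKM, and Ttk, the kinase MPS1 that starts checkpoint signalling, at 4.08 and 4.97 FPKM. The lowest unadjusted p of the group in the authors' deposited table was 0.174, for Bub1.

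The genes of the APC/C pathway and anaphase were all higher in cKO, with a median log2 ratio of 0.26, and their range was wide. Ube2c, with the largest ratio of all 54, is described above. Cdc20, the activator of the APC/C at anaphase, stood at 21.0 and 25.1 FPKM. Cdca3, which promotes entry into mitosis, stood at 26.1 and 32.2 FPKM. Pttg1, which encodes securin, the inhibitor of separase, stood at 44.1 and 45.8 FPKM, a log2 ratio of 0.053. Espl1, which encodes separase, the protease that cuts cohesin, stood at 6.88 and 7.98 FPKM. Whether the ratios of Ube2c and Pttg1 differ from each other was not tested.

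**Figure D2:**
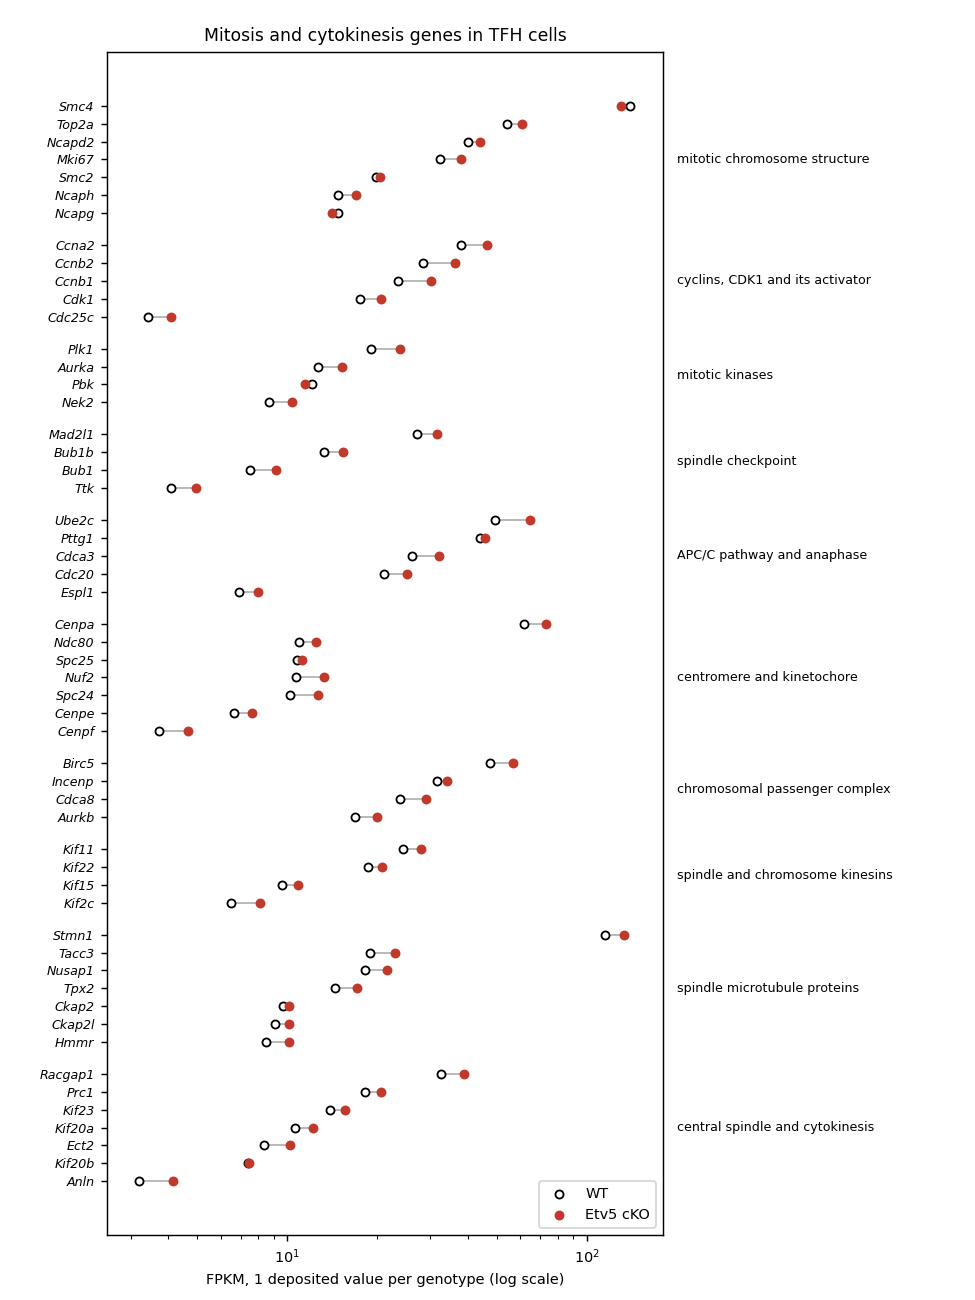
FPKM of each of the 54 genes (x axis, log scale) in WT (open circles) and Etv5 cKO (red circles), grouped by function and ordered by WT level within a group. The red circle lies to the right of the open one in 51 genes and to the left in Smc4, Ncapg and Pbk, and levels span 3.20 to 139 FPKM in WT.

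At the centromere and kinetochore all 7 genes were higher in cKO, with a median log2 ratio of 0.25. Cenpa, the histone H3 variant that marks centromeres, was the most abundant of the 7 at 61.7 and 73.4 FPKM. The 4 subunits of the NDC80 complex, which grips microtubule ends, had nearly equal levels per length in WT: Ndc80 10.9 FPKM, Nuf2 10.7 FPKM, Spc24 10.2 FPKM and Spc25 10.7 FPKM. In cKO they ran from 11.2 FPKM (Spc25) to 13.2 FPKM (Nuf2), with Ndc80 at 12.5 FPKM and Spc24 at 12.7 FPKM. The highest subunit exceeded the lowest 1.07-fold in WT and 1.18-fold in cKO. Cenpe, a kinesin that moves chromosomes to the spindle equator, stood at 6.65 and 7.59 FPKM, and Cenpf, a large kinetochore protein, at 3.72 and 4.67 FPKM.

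The chromosomal passenger complex, which corrects faulty attachments and later acts in cytokinesis, had all 4 subunit genes higher in cKO. Birc5 (survivin) stood at 47.5 and 56.6 FPKM, Incenp, the scaffold, at 31.7 and 34.2 FPKM, Cdca8 (borealin) at 23.8 and 29.0 FPKM, and the kinase gene Aurkb at 16.9 and 19.9 FPKM. The order of the 4 was the same in both genotypes, and the highest exceeded the lowest 2.82-fold in WT and 2.85-fold in cKO. The lowest unadjusted p of the complex in the authors' deposited table was 0.137, for Cdca8.

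Kinesins of the spindle and chromosomes were higher in cKO in 4 of 4, with a median log2 ratio of 0.19. Kif11 (Eg5), which pushes spindle poles apart, stood at 24.4 and 27.9 FPKM, and Kif15, which can share that task, at 9.59 and 10.9 FPKM. Kif22, a motor on chromosome arms, stood at 18.6 and 20.7 FPKM. Kif2c, which takes apart microtubules at centromeres, stood at 6.47 and 8.10 FPKM and had the largest ratio of the group, 0.32 on the log2 scale (unadjusted p = 0.129 in the authors' deposited table).

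Spindle microtubule proteins were also higher in 7 of 7, with a median log2 ratio of 0.24. Stmn1 (stathmin), which binds free tubulin and is also made by cycling cells outside mitosis, stood at 115 and 134 FPKM, the second highest level of the 54 in WT and the highest in cKO. Tacc3, which stabilizes spindle fibres, stood at 18.8 and 22.9 FPKM, Nusap1, a microtubule bundling protein, at 18.2 and 21.6 FPKM, and Tpx2, which activates Aurora A, at 14.4 and 17.1 FPKM. Hmmr stood at 8.51 and 10.1 FPKM, Ckap2l at 9.11 and 10.1 FPKM and Ckap2 at 9.67 and 10.1 FPKM, so that all 3 stood at the same rounded level in cKO. The lowest unadjusted p among the spindle proteins was 0.148 in the authors' deposited table, for Tacc3.

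The genes of the central spindle and cytokinesis were higher in 7 of 7, with a median log2 ratio of 0.20. Racgap1 and Kif23, the centralspindlin pair, stood at 32.5 and 38.9 FPKM and at 13.9 and 15.6 FPKM, and Racgap1 had the lowest unadjusted p of these genes in the authors' deposited table (0.151). Prc1, which bundles the central spindle, stood at 18.2 and 20.5 FPKM, and Ect2, the exchange factor that activates RhoA at the cleavage furrow, at 8.38 and 10.2 FPKM. Kif20a, a kinesin of the central spindle, stood at 10.6 and 12.2 FPKM. Its relative Kif20b had the ratio nearest to 0 of all members, at 7.41 and 7.46 FPKM. Anln (anillin), which links actin, myosin and septins in the furrow, stood at 3.20 and 4.13 FPKM, the lowest WT level of the 54 and the second largest log2 ratio, 0.37.

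The group of mitotic chromosome structure had the lowest median log2 ratio, 0.13, and 2 of the 3 members with lower values in cKO. Smc4, an ATPase subunit of condensin, had the highest level of the 54 in WT and the second highest in cKO, below Stmn1, at 139 FPKM in WT against 130 FPKM in cKO. Its partner Smc2 stood at 19.8 and 20.4 FPKM. The condensin I subunits Ncapd2, Ncaph and Ncapg stood at 40.1 and 43.9, at 14.8 and 16.9, and at 14.7 and 14.1 FPKM. Log2 ratios of these 5 condensin subunits ran from -0.096 to 0.19. Mki67, which coats mitotic chromosomes and marks dividing cells, stood at 32.5 and 38.1 FPKM (unadjusted p = 0.229 in the authors' deposited table), and Top2a, the topoisomerase that untangles sister chromatids, at 54.4 and 60.6 FPKM (unadjusted p = 0.391 in the authors' deposited table). Smc4 had an unadjusted p of 0.594 in the authors' deposited table.

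The precision behind these values differed little between members, with 4 exceptions. The log2 ratio divided by the authors' test score, which is the log2 difference that counts as 1 unit of score, had a median of 0.28 over the members and was below 0.4 in 50 of them. It was 1.07 for Anln, 0.70 for Kif20a and 0.49 for Cdc20, and 0.43 for Cdc25c. The authors' deposited table gives Anln a locus of 333747 bases listed for 16 genes, Kif20a the same locus as Brd8 and Cdc23, and Cdc20 the same locus as Elovl1. The large ratio of Anln came with an unadjusted p of 0.623 in the authors' deposited table. In all, 9 members shared a deposited locus with another gene, Smc4 and Ncapg among them. Without these 9, 44 of 45 members were higher in cKO, with a median log2 ratio of 0.23. Apart from Anln, Kif20a and Cdc20, the members at a shared locus had log2 ratios per unit of score from 0.25 (Ncapd2) to 0.33 (Ncapg). Cdc25c had a locus of its own. Whether a shared locus lowers precision was not tested.

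**Figure D3:**
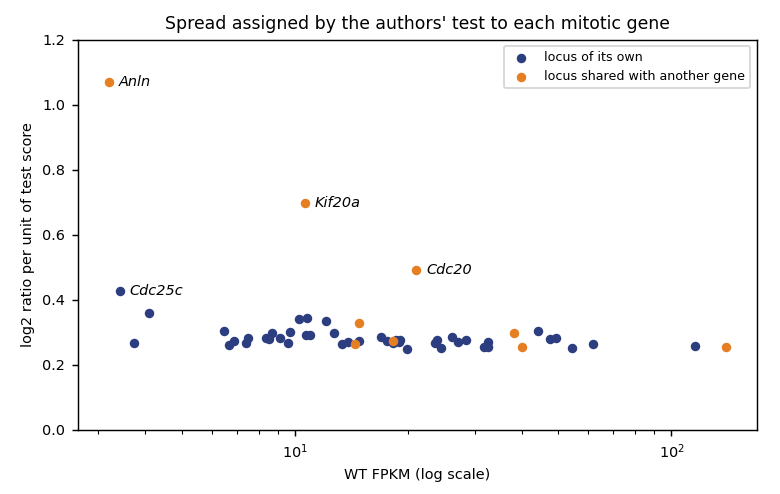
WT level in FPKM (x axis, log scale) against the log2 ratio per unit of the authors' test score (y axis) for the 54 genes, coloured by whether the deposited locus is listed for 1 gene or several. Most genes lie near 0.28, while Anln, Kif20a and Cdc20, each at a locus listed for several genes, lie at 1.07, 0.70 and 0.49. The other members at such loci lie from 0.25 to 0.33. Cdc25c, at a locus of its own, lies at 0.43.

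Mitotic genes outside the 54 gave a smaller median. Of 74 such genes, 69 had higher values in cKO and 5 lower ones (median log2 ratio 0.15), and Cuffdiff called 0 of them in the authors' deposited table, with 0 below an unadjusted p of 0.05. The largest ratio was that of Fam64a (Pimreg), at 3.996 and 5.67 FPKM, and the smallest that of Mis12, a kinetochore gene, at 19.3 and 17.8 FPKM. All 5 lower ones act at the centromere or kinetochore (Cenpo, Cenpq, Cenpt, Mis12 and Zwint). Other genes of this kind were higher, for example Cenpm at 4.84 and 6.79 FPKM. Of 45 DNA replication genes, which act in the preceding S phase, 42 had higher values and 3 lower ones (median log2 ratio 0.15). Their largest ratio was that of Rrm2, a subunit of ribonucleotide reductase, at 65.3 and 82.7 FPKM, and their smallest that of Gins3, at 6.62 and 6.15 FPKM. Cuffdiff called 0 of the replication genes in the authors' deposited table, with 0 below an unadjusted p of 0.05. Whether the 54 differed from these lists was not tested.

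Other genes that control division were split in direction. Of 15 genes for APC/C subunits and the coactivator Fzr1, 8 had higher values and 7 lower ones (median log2 ratio 0.0072), from Anapc13 at 57.7 and 46.2 FPKM to Anapc15 at 13.8 and 17.1 FPKM. Among 21 regulators of cell cycle transcription 13 had higher values and 8 lower ones (median 0.075). Foxm1 and Mybl2, activators of mitotic genes, stood at 11.2 and 12.6 FPKM and at 6.11 and 7.18 FPKM. E2f8, itself made late in the cycle, had the largest ratio of the regulators at 7.81 and 9.86 FPKM, and E2f5 the smallest at 7.36 and 5.43 FPKM. The MuvB core genes Lin9, Lin37, Lin52 and Lin54 were lower in cKO, for example Lin9 at 11.7 and 10.2 FPKM, and Rbbp4 was higher at 70.0 and 72.5 FPKM. Of 15 G1 cyclins, CDKs and CDK inhibitors 10 had higher values and 5 lower ones (median 0.11). The one gene of these 3 lists below an unadjusted p of 0.05 in the authors' deposited table was the inhibitor Cdkn2b (p = 0.0290), at 0.754 and 0.218 FPKM, a level below 1 FPKM in both genotypes. Cuffdiff called 0 genes of the 3 lists in the authors' deposited table.

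**Figure D4:**
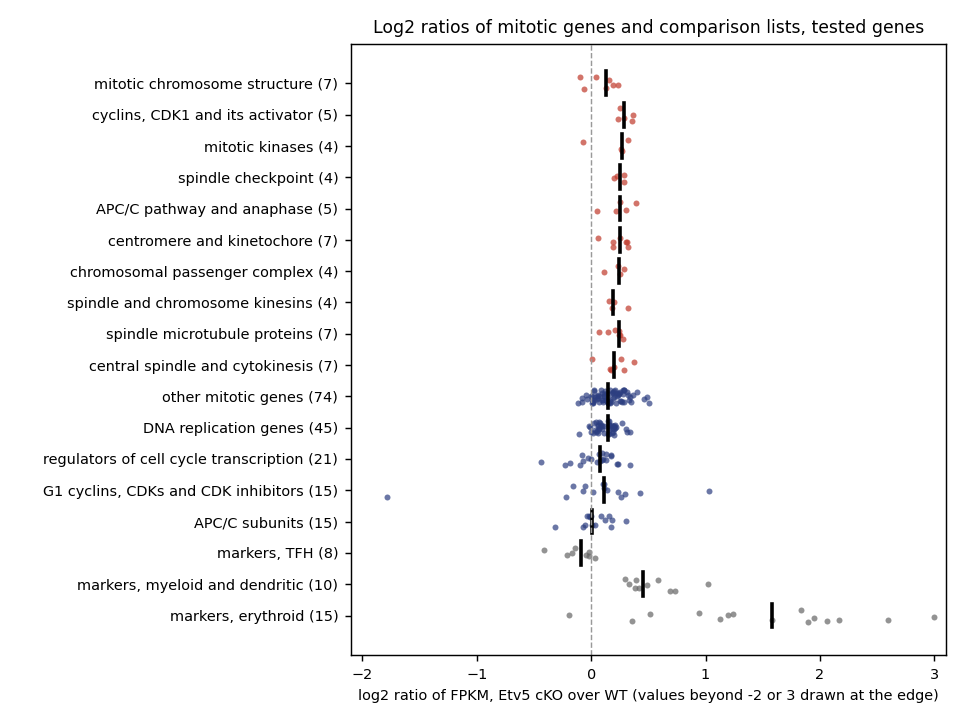
Log2 ratio of FPKM in Etv5 cKO over WT (x axis) for each tested gene, by group of function (red), comparison list (blue) and marker list (grey), with the number of tested genes in brackets and a black bar at the median. The medians of the 10 mitotic groups lie between 0.13 and 0.29, that of APC/C subunits at 0.0072, that of TFH markers at -0.092 and that of erythroid markers at 1.58.

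Markers of other blood cells had higher values in the same cKO libraries. Of 15 tested erythroid entries 14 were higher, 7 of them called by Cuffdiff in the authors' deposited table, and the median log2 ratio was 1.58. Alas2, the erythroid enzyme of haem synthesis, stood at 1.63 and 6.83 FPKM, and Klf1, an erythroid transcription factor, at 2.03 and 3.88 FPKM. Of 8 tested granulocyte markers 6 were higher, 1 of them (Mpo) called. All 10 tested myeloid and dendritic markers were higher, with a median of 0.46, and 1 of them (Lyz2) was called. Cuffdiff called 12 genes higher in cKO in the authors' deposited table, 0.104% of all tested genes. The called markers of these 3 lists, 7 erythroid, 1 granulocyte and 1 myeloid, were among them. No marker of these 3 lists was at 0 in either genotype. All 6 tested CD8 and NK markers were higher too, with a median of 0.60 and a sum over 7 genes of 26.4 and 33.1 FPKM. Cuffdiff called 0 of them in the authors' deposited table. The most abundant, Klrb1c, stood at 10.2 and 10.4 FPKM, a log2 ratio of 0.024. Gzma, a cytotoxic granule protease, stood at 2.28 and 4.07 FPKM and had an unadjusted p of 0.0479 in the authors' deposited table. Among 6 T cell markers 5 were lower in cKO, and among 8 TFH markers 7 were lower, with medians of -0.064 and -0.092. Il21, the TFH marker with the smallest ratio, stood at 66.1 and 49.7 FPKM, a log2 ratio of -0.41 (unadjusted p = 0.0197 in the authors' deposited table). The summed level of the 54 mitotic genes was 1260 FPKM in WT against 1437 FPKM in cKO, 1.14-fold. The part of these other cells in the higher mitotic values was not tested. Markers of germinal centre B and plasma cells had a sum over 5 genes of 44.9 and 42.7 FPKM. Igj (Jchain) made up most of that sum, at 34.1 and 33.2 FPKM, and of the 4 tested genes 1 was higher and 3 were lower.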

How the data were processed

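Messenger RNA of sorted TFH cells was sequenced in 4 libraries, 2 per genotype, from stranded poly(A) libraries, per the labels' protocols. TopHat2 2.0.13, Cuffdiff 2.2.0 and mm10 are named in the submitters' processing notes. The annotation release, the strand setting and how libraries were scaled stand in none of the sources used here. Per the file headers, the deposited table is a Cuffdiff comparison with 1 FPKM value per gene and genotype, a log2 fold change and a fold ratio, followed by the score of the test and its p-value before and after adjustment. The deposited log2 values matched the log2 ratio of the FPKM values within 4.09e-11. The table used here has 1 empty line, not analysed here. Depth is unknown, and tests on library values (edgeR or limma) could not be fitted.

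Members, gene lists and the naming rule were chosen with earlier results of these data known. The rule gives both FPKM values for all 54 members, and p-values for members below an unadjusted p of 0.05, the lowest p per group of function, Mki67, Top2a and the extreme ratios; further p-values were added after the values were seen. Some listed marker genes are not reported here and were left out of the sums. Of the other 247 symbols in comparison lists 2 were not matched, and 7 were matched by an older symbol. No test compared lists. Reads of overlapping genes may be divided between them. Adjustment and normalization functions were tested on simulated data. Analyses used Python 3.11.15, pandas 2.3.3 and numpy 2.4.6, with figures by matplotlib 3.10.9.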

Additional observations from a re-analysis of the deposited data

How the results depend on the processing

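Pseudocounts and filters on the mean cannot turn the direction of a gene with 1 value per genotype, and median centring shifted all genes by 0.0032. Quantile normalization, which could turn it, left 51 of 54 members higher in Etv5 cKO, and 47 of the 50 members with a mean of at least 5 FPKM were higher. The members' median log2 ratio ran from 0.16 (pseudocount 5) to 0.24 (quantile normalization). At an unadjusted p below 0.05 in the authors' deposited table, 1 member passed, and 278 of all genes passed against 40 by adjusted p, or 21 when adjusted over genes whose mean reached 5 FPKM. With a pseudocount of 5 the median log2 ratio was 0.16 for the spindle checkpoint, 0.15 for centromere and kinetochore, 0.094 for other mitotic genes, 0.089 for DNA replication and 0.039 for G1 cyclins and inhibitors. With it the median was 0.18 for CD8 and NK, 0.0998 for B cell, -0.070 for germinal centre B and plasma cell, 0.45 for erythroid, 0.32 for granulocyte, 0.26 for myeloid and -0.83 for Y-linked genes. With a pseudocount of 1 it was 0.35 for CD8 and NK and 0.90 for erythroid markers. Quantile normalization gave 0.011 for APC/C subunits and -0.11 for T cell markers. At a mean of at least 5 FPKM it was 0.24 for CD8 and NK and -0.28 for B cell markers, which reversed (1 gene left), at a mean of at least 1 FPKM -0.19 for germinal centre B and plasma cell, and without a filter -0.039 for germinal centre B and plasma cell markers. Low levels limit these marker medians. No paired analysis was possible because each genotype has a single value per gene, and leaving out libraries could not be run for the same reason.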
